A study of Mus musculus with 6 samples.

Results

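Long intergenic noncoding RNAs (lincRNAs) are transcripts from genes that lie between protein-coding genes, and 112 such genes were expressed in cultured mouse microglia with or without Cre-driven loss of REV-ERBα (Nr1d1). The genes were chosen by their biotype and level: a gene counted as expressed when it carried the lincRNA biotype of GENCODE M21 and exceeded 1 CPM (counts per 1000000 counts of the library) in at least 4 of the 6 libraries. Of 55487 genes in the files, 5614 had this biotype, 4348 of these had a count in some library, and 112 passed. The imprinted genes Meg3, Rian, Mirg and H19 were to be set aside, but none of them passed. Most of the 112 genes had only a clone or model name (94 of 112), they lay on 19 chromosomes and none on X or Y, and their exons covered from 269 to 93147 bases with a median of 2133.

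The cells were cortical microglia from postnatal day 1 to 3 pups that carried floxed Nr1d1 alleles (Nr1d1 fl/fl). The cells of the 3 Cre+ libraries also carried a tamoxifen-activated Cre (CAG::CreERT2), and those of the 3 Cre- libraries did not. The cells of all 6 received 4-hydroxytamoxifen (4-OHT) at 1.5 μM for 2 days by the labels. The CAG promoter is active in all cell types, so Cre was not limited to microglia, and any cell left over from the mixed glial culture could also have recombined. The contrast asks which lincRNA levels differed between Cre+ and Cre- cultures. Active Cre and loss of REV-ERBα came together in this design, so their effects cannot be told apart.

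lincRNAs are transcribed by RNA polymerase II and are usually spliced and polyadenylated, but they are annotated as noncoding. The biotype is a label of the annotation, and whether any of the genes described here codes for a protein or peptide was not tested. The known roles of lincRNAs differ widely. Some build nuclear bodies or hold RNA-binding proteins there, some act on the stability or translation of other RNAs, and some are mainly the carriers of small RNAs in their exons or introns. Many are expressed at a few molecules per cell or fewer and in few cell types. REV-ERBα is a nuclear receptor that represses transcription of clock and metabolic genes, and macrophages and microglia express it.

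The 6 libraries held 87545868 to 93942161 counts in Cre- and 93701215 to 110909129 in Cre+. Nr1d1 itself was at 2.35, 1.20 and 1.64 TMM-normalised CPM in Cre- and at 1.00, 0.945 and 1.08 in Cre+, a log2 difference of -0.77 ± 0.25 (SE, edgeR adjusted p = 0.0945). The groups did not overlap for Nr1d1, but the gene-level count includes exons outside the deleted ones, so this is a weak check of the labels. Summed markers of microglia were at 6040 to 6320 CPM in Cre- and 5920 to 6070 in Cre+, with 11 of 12 tested. Csf1r, Trem2 and Tyrobp were high, Tmem119 and Aif1 were at a few CPM, and P2ry12 was under the filter in both groups. Markers of other cells had smaller sums: astrocytes 44.0 to 48.0 against 42.7 to 48.4 (2 of 7 tested), oligodendrocytes 37.3 to 44.9 against 39.9 to 41.1 (2 of 8), endothelial cells 21 to 23.1 against 24.3 to 28 (2 of 6), neurons 2.97 to 3.61 against 2.38 to 2.54 (0 of 7), and fibroblasts with mural cells 1.84 to 2.83 against 0.973 to 1.23 (0 of 8). No marker was at 0 in all 6 libraries, but Olig2, Cldn5 and Mog were each at 0 in 2 or more of them. Of all the markers, Itgam of microglia (log2 fold change 0.18, edgeR adjusted p = 0.0463) and Flt1 of endothelial cells (0.33, adjusted p = 0.0245) rose in Cre+. Flt1 made up most of the endothelial sum, while Kdr, also tested, was at -0.36 (adjusted p = 0.568). Pecam1 and Tie1, under the filter, were lower in Cre+. The astrocyte sum was mostly Aldoc and Aldh1l1, and the oligodendrocyte sum mostly Mbp and Mag. The endothelial, neuronal and fibroblast sums did not overlap between the groups, and their part in the results was not tested. In bulk RNA, fewer cells of a type and less RNA per cell cannot be told apart. Nothing in the labels ties a library to a separate animal, so p-values measure the spread between these libraries.

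The expressed lincRNAs took 0.169% to 0.182% of all counts in Cre- and 0.181% to 0.191% in Cre+. Malat1 alone made up 19.9% to 22.3% of these counts in Cre- and 23.1% to 26.6% in Cre+. Without Malat1, the other 111 genes together stood at 1400 ± 36.7 CPM in Cre- against 1390 ± 13.1 CPM in Cre+ (SD, n = 3), and the libraries of both groups overlapped. The levels were spread over a wide range, from 0.885 to 428 CPM as the mean over 6 libraries, with a median of 2.74 CPM against 16.2 CPM for the protein-coding genes tested. Only 13 of the 112 genes reached a mean of 10 CPM, 31 reached 5 CPM, and 43 lay under 2 CPM. Replicate spread followed level. The median coefficient of variation within a group was 12.7% for the lincRNAs and 8.09% for all genes tested, but 5.72% against 5.82% among genes at 10 CPM or more, and 19.3% in both sets among genes under 2 CPM.

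In edgeR's quasi-likelihood test over 11429 genes, 4 of the 112 lincRNAs (3.57%) had an adjusted p of at most 0.05. Among all genes tested the share was 5.07%, so the count of lincRNAs called was near the background. 1700017M07Rik and 2610035D17Rik fell in Cre+ (background for falls, 2.56%), and Gm43351 and Malat1 rose (background for rises, 2.50%). An unadjusted p under 0.05 was found for 22 lincRNAs (19.6%, against 19.1% of all genes), and 26 had groups that did not overlap (23.2%, against 24.0%), 13 in each direction. The median log2 fold change was -0.05 for the lincRNAs and 0.00 for all genes tested. Its median absolute size was 0.18 for lincRNAs and 0.11 for protein-coding genes, and as the level of a lincRNA fell the points spread more widely around 0.

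**Figure D1:**
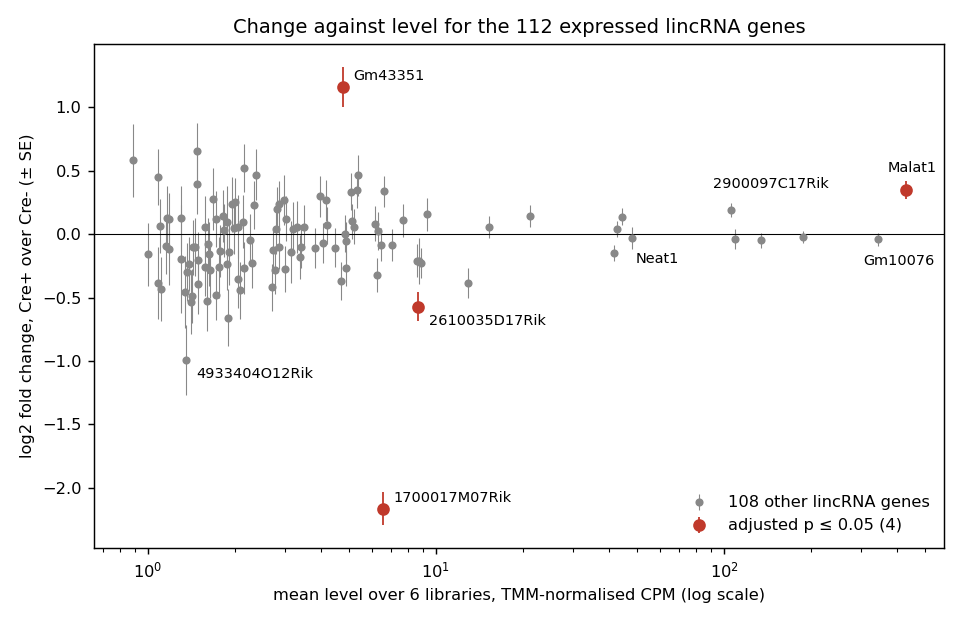
Each point is one of the 112 expressed lincRNA genes, with its mean level over 6 libraries (TMM-normalised CPM, log scale) on the x axis and the log2 fold change of Cre+ over Cre- with its SE on the y axis. Of the 4 genes with an adjusted p of at most 0.05 (red), Malat1 had the highest level of the 112 and a rise of 0.35, while the other 3 lay under 10 CPM.

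1700017M07Rik, a gene with no assigned function in the annotation, had the lowest log2 fold change of the 112. It lies on the minus strand at chr3:35256462-35276131 (GRCm38), and its exons cover 940 bases. The 3 Cre- libraries gave TMM-normalised levels of 10.5, 10.1 and 11.5 CPM, while the Cre+ libraries gave 2.38, 2.35 and 2.42 CPM. The Cre+ libraries had an SD of 0.034 CPM, and each lay far under every Cre- library. The level was 4.49-fold lower in Cre+ (log2 fold change -2.17 ± 0.13 SE, edgeR adjusted p = 5.65e-08). No exon base was shared with another gene on either strand, and no transcript of another gene matched it over 100 bases at 95% identity. The nearest protein-coding gene, Atp11b, which encodes a phospholipid-transporting ATPase subunit, was 477975 bases away and differed by 0.09 ± 0.10 (adjusted p = 0.688). Atp11b was also the only tested gene within 500000 bases.

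The promoter of 1700017M07Rik (RefSeq, GRCm38.p6, chr3:35276082-35276381, minus strand, 250 bases before to 50 after the start) is shown because this lincRNA had the largest difference. Capitals mark a CCAAT box read on the other strand and a run of 10 tandem copies of AGTCAT.
1700017M07Rik promoter: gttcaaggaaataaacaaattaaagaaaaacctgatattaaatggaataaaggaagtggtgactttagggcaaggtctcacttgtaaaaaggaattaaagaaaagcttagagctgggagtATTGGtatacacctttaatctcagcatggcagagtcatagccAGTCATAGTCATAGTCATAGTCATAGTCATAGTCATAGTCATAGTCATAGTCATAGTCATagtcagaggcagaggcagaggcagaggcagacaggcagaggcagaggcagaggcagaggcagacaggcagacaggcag
Neither AGGTCA, the half-site of nuclear receptors, nor TAGGTCA, which extends it towards the element that REV-ERB and ROR receptors bind, is in this window.

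2610035D17Rik also fell. It spans chr11:113043895-113201838 on the minus strand, with 2121 bases of exon. Its levels were 10.8, 9.89 and 10.5 CPM in Cre- and 6.53, 7.0 and 7.44 CPM in Cre+. The groups were well apart, with a level 1.49-fold lower in Cre+ (log2 fold change -0.57 ± 0.11, edgeR adjusted p = 0.00711). Slc39a11, a zinc transporter gene 43015 bases away and the nearest protein-coding gene, differed by -0.06 ± 0.06 (adjusted p = 0.642). Of the 3 other genes tested within 500000 bases, Cog1, Fam104a and D11Wsu47e, none was called, and their log2 fold changes ran from -0.06 to 0.16.

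The promoter of 2610035D17Rik (RefSeq, GRCm38.p6, chr11:113201789-113202088, minus strand) has a different make-up. Capitals mark CCAAT boxes 151 and 87 bases before the start and a TATA box (TATAAA) 33 bases before it.
2610035D17Rik promoter: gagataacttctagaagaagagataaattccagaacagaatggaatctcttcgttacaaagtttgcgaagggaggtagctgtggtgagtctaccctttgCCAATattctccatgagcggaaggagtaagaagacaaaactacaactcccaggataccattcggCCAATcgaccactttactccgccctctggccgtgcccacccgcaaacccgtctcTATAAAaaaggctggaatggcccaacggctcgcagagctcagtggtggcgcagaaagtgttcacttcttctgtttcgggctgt

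Gm43351 had the largest log2 rise of the 112. This short gene model at chr3:130874073-130876824 on the plus strand has 326 bases of exon and shares none of them with another gene. It stood at 2.38, 3.05 and 3.39 CPM in Cre- and at 6.86, 6.98 and 5.85 CPM in Cre+. The lowest Cre+ library was above the highest Cre- library, and the mean was 2.23-fold higher in Cre+ (log2 fold change 1.16 ± 0.16, edgeR adjusted p = 5.02e-04). Rpl34, a ribosomal protein gene 143675 bases away, was the nearest protein-coding gene and differed by 0.06 ± 0.05 (adjusted p = 0.528). Windows reaching 500000 bases to each side were drawn for called lincRNAs only. That of Malat1 held 1 called gene of 46 tested, and those of 1700017M07Rik and 2610035D17Rik held none. Of the 5 genes tested in the window of Gm43351, 2 were called, where 5.07% of all genes tested were. Hadh, a fatty acid oxidation enzyme gene, rose by 0.25 (adjusted p = 0.0444), and Sgms2, a sphingomyelin synthase gene, rose by 0.42 (adjusted p = 0.0339), while Ostc was at -0.13 (adjusted p = 0.258) and the pseudogene Gm5855 at -0.03 (adjusted p = 0.944). These 4 genes were named after their values were seen.

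**Figure D2:**
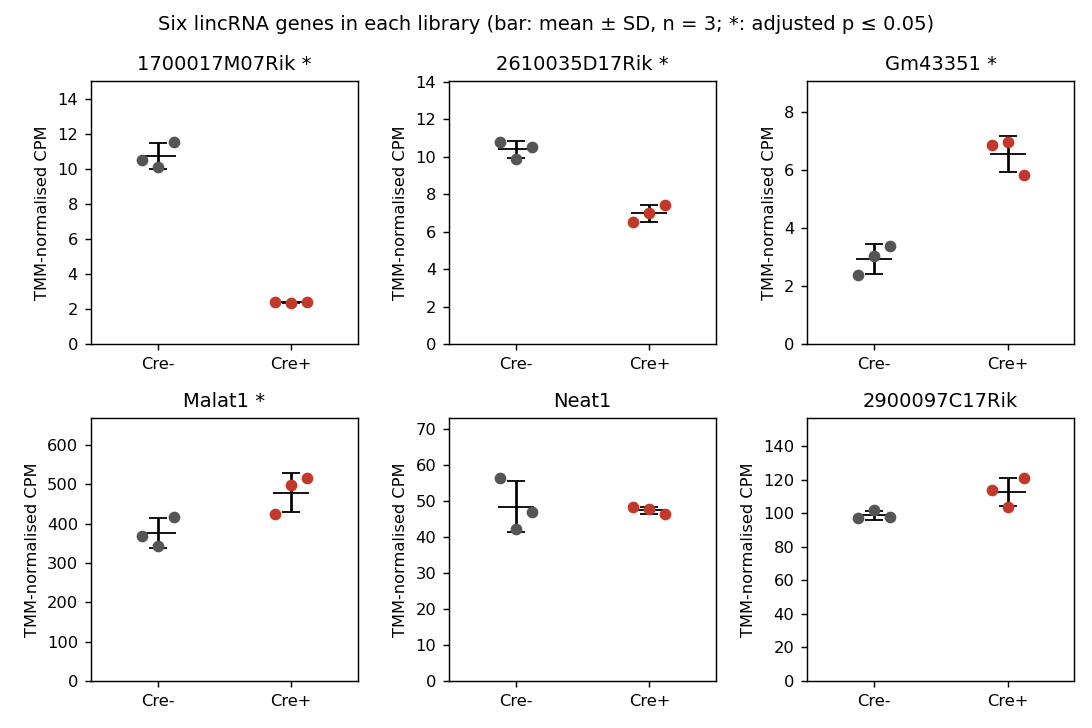
Each panel shows 1 lincRNA gene, with every dot a library (TMM-normalised CPM on a linear axis from 0; Cre- grey, Cre+ red; bar, mean ± SD, n = 3). For the 4 genes with an asterisk the groups did not overlap, with the widest relative gap in 1700017M07Rik and the narrowest in Malat1. Neat1 overlapped fully.

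Malat1 is the abundant nuclear RNA of speckles, the bodies that store splicing factors, and it had the highest CPM of the 112 genes. It lies at chr19:5795690-5802672 on the minus strand. Its levels were 368, 342 and 418 CPM in Cre- and 423, 499 and 515 CPM in Cre+. The lowest Cre+ library was only just above the highest Cre- library. The mean was 1.27-fold higher in Cre+ (log2 fold change 0.35 ± 0.07, edgeR adjusted p = 0.0113). The call did not hold without Cre- replicate 2 (0.28, adjusted p = 0.0543), without Cre+ replicate 2 (0.32, adjusted p = 0.0574) or without Cre+ replicate 3 (0.29, adjusted p = 0.0709). Of 46 genes tested within 500000 bases of Malat1, 1 was called, where 5.07% of all genes tested were. Map3k11, a kinase gene of the JNK pathway, fell by 0.40 (adjusted p = 0.0147), and it was named after its value was seen. Malat1 shares 453 bases of exon with a gene model on the other strand, Gm37376, and the library kit did not keep strand.

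The promoter of Malat1 (RefSeq, GRCm38.p6, chr19:5802623-5802922, minus strand) is printed as the third of the called genes with an entry. None of the 5 motifs searched over all promoters was in it, so it has no capitals.
Malat1 promoter: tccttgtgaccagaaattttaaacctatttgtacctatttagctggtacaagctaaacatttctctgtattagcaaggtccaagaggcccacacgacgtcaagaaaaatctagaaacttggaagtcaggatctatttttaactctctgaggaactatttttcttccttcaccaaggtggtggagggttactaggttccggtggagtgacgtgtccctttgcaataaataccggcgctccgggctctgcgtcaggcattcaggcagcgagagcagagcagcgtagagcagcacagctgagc

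Neat1, the RNA scaffold of paraspeckles, lies on the same strand 22036 bases from Malat1. Its levels were 56.2, 42.1 and 46.9 CPM in Cre- and 48.1, 47.7 and 46.2 CPM in Cre+. All 3 Cre+ libraries lay inside the range of the Cre- libraries (log2 fold change -0.03 ± 0.08, adjusted p = 0.893). The counts are per gene and do not tell transcript forms of Neat1 apart. The kit primes on a poly(A) tail, so the levels of Malat1 and Neat1 are those of RNA it could prime. Malat1 counts were 6.56, 8.13 and 8.90 times those of Neat1 in Cre- and 8.80, 10.5 and 11.1 times in Cre+, with 1 Cre+ library inside the Cre- range (exact permutation test, two-sided p = 0.2, where 0.1 is the smallest that 3 against 3 can give).

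Transcripts of the proteins that form these bodies were taken as a comparison. All 18 paraspeckle protein genes on the list were tested, 14 had a log2 fold change above 0, and 2 were called: Hnrnpa1, a splicing repressor (0.31, adjusted p = 0.00232), and Hnrnpk, which binds C-rich RNA (0.17, adjusted p = 0.031). That is 11.1% called against 5.07% of all genes tested, of which 5781 of 11429 were above 0. Their median was 0.09 against 0.00 for all genes, and Nono and Sfpq, the core pair of the paraspeckle, were at 0.13 (adjusted p = 0.191) and 0.03 (adjusted p = 0.92). Hnrnpk lost its call whichever single library was left out, while Hnrnpa1 kept it. Of 20 nuclear speckle protein genes, all were tested and 15 were above 0, with a median of 0.08. Of these 20 genes, 2 were called (10.0%, beside the same 5.07% of all genes). Srsf7, a splicing activator, rose by 0.22 (adjusted p = 0.0247) and Snrnp70, a subunit of the U1 particle, fell by 0.29 (adjusted p = 0.0197). Between 0 and 1 of the 20 was called when any single library was left out.

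2900097C17Rik is the mouse Norad, a cytoplasmic RNA that holds Pumilio proteins, which repress the mRNAs they bind. Its levels were 97.2, 102 and 97.5 CPM in Cre- and 114, 104 and 121 CPM in Cre+. The groups did not overlap, but the difference did not pass the test (log2 fold change 0.19 ± 0.06, edgeR adjusted p = 0.0737). It passed without Cre+ replicate 2 (0.24, adjusted p = 0.0308), in DESeq2 (0.19, adjusted p = 0.0413) and with no filter on expression (0.27, adjusted p = 0.00734). Its 4915-base transcript held 11 copies of the Pumilio motif TGTANATA (N is any base), or 2.24 per 1000 bases against a median of 0 over the 112 genes. The first 3 are shown with the motif in capitals, and each stands within 24 bases of transcript.
Norad bases 643 to 666: aagtcctgTGTATATAatatgaaa
Norad bases 1139 to 1162: aaacatgcTGTAAATAcctttttg
Norad bases 1328 to 1351: cttttcttTGTACATAgtgtatgt
A 2537-base stretch of Norad was 99.2% identical to the lincRNA gene Gm7292, which had 0.74 CPM in Cre- against 0.89 CPM in Cre+, so reads from this stretch are uncertain between the 2 genes.

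1700020I14Rik is Cyrano, a conserved RNA known for a site that pairs almost along its whole length with the microRNA miR-7 and leads to the decay of that microRNA. Its levels were 43.9, 38.8 and 43.7 CPM in Cre- and 44.5, 47.4 and 47.1 CPM in Cre+. The Cre+ libraries were above the Cre- libraries by a small margin (log2 fold change 0.14 ± 0.07, adjusted p = 0.272), which did not pass the test. The site was found in the transcript at bases 2935 to 2958. Capitals in the site mark the bases that pair with miR-7a-5p (13 with its 3′ part and 7 with its seed, bases 2 to 8), and capitals in the microRNA mark the seed.
Cyrano site: ACAACAAAATCACcaatGTCTTCC
miR-7a-5p: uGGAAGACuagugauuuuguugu
The list of noncoding regulators of chromatin or RNA stability had 16 names for 15 genes, since Oip5os1 is another name of Cyrano, and 5 of the 15 were tested and none was called in edgeR, with 2 at an unadjusted p under 0.05. All 5 had a log2 fold change above 0, with a median of 0.19. Besides Norad and Cyrano these were Tug1 (0.29, adjusted p = 0.0593), Firre (0.25, adjusted p = 0.482) and Kcnq1ot1 (0.09, adjusted p = 0.849), which carry other biotypes. Xist, the RNA of the inactive X chromosome, had counts in only 1 library, at 0.0447 CPM.

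**Figure D3:**
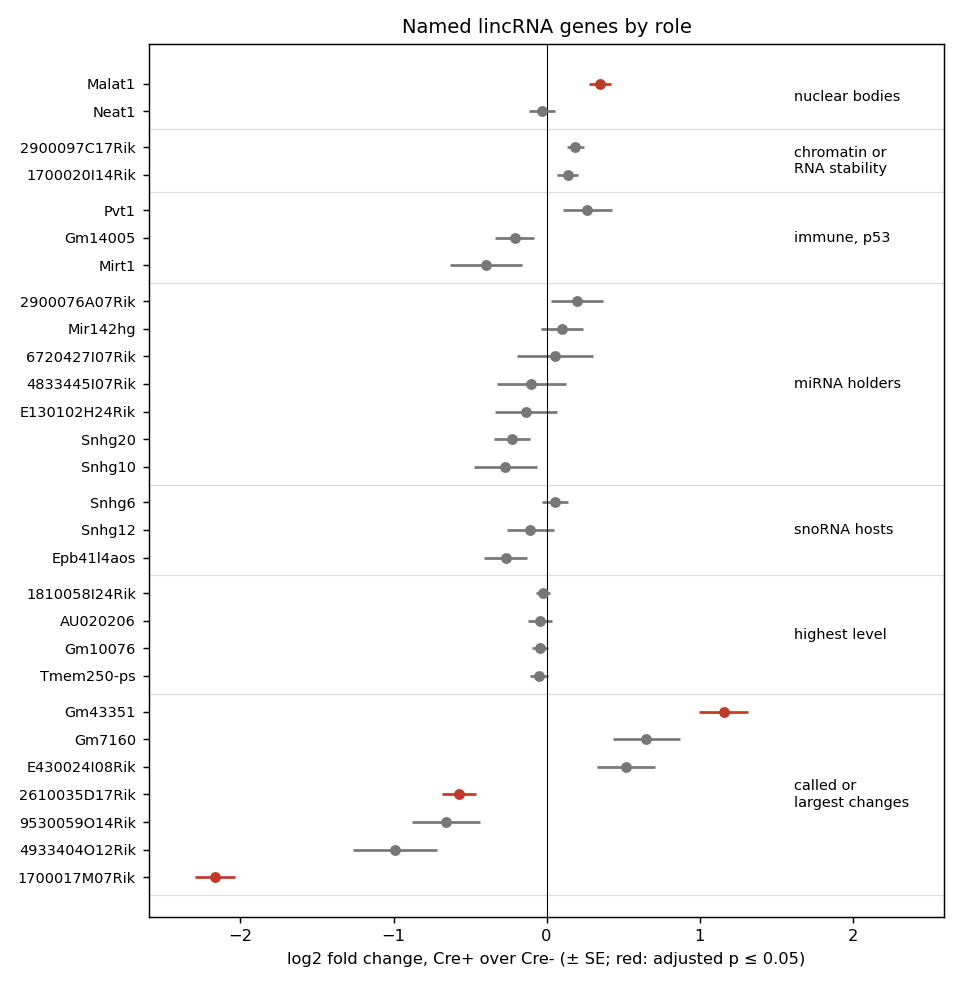
Log2 fold changes of Cre+ over Cre- with their SE (x axis) for the 28 named lincRNA genes, grouped by role, red where the adjusted p was at most 0.05. Malat1 stands to the right of Neat1 in the first group, the carriers of small RNAs lie between -0.27 and 0.20, and 1700017M07Rik at -2.17 and Gm43351 at 1.16 mark both ends.

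On the lists of noncoding genes of immune cells and of the p53 response, no gene was called apart from Malat1. The lists may not hold every lincRNA with such a role. Gm14005, known as Morrbid, promotes the survival of myeloid cells by repressing its neighbour Bcl2l11, which encodes the cell death protein BIM. Gm14005 had 8.99, 9.03 and 9.74 CPM in Cre- against 9.02, 8.36 and 6.64 CPM in Cre+, with 1 Cre+ library inside the Cre- range (-0.21 ± 0.13, adjusted p = 0.409). Bcl2l11, 15772 bases away, differed by -0.03 ± 0.07 (adjusted p = 0.865). Mirt1, named for its rise after myocardial infarction, lay near the filter, with 1.69 ± 0.45 CPM in Cre- against 1.29 ± 0.12 CPM in Cre+ (SD, n = 3; log2 fold change -0.39 ± 0.24, adjusted p = 0.394). Pvt1, which lies beside the Myc oncogene and is known to limit or enhance its output, had 3.68, 3.77 and 3.87 CPM in Cre- against 3.79, 4.46 and 5.37 CPM in Cre+ (0.27 ± 0.16, adjusted p = 0.4). Myc, 47612 bases from Pvt1, rose by 0.31 ± 0.08 (adjusted p = 0.0309), and the difference between the 2 genes was not tested. Of 12 immune noncoding genes, 6 were tested with a median of 0.00. Of 5 p53-linked genes, 3 were tested with a median of 0.27, and 1 had an unadjusted p under 0.05.

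Several of the lincRNAs are carriers of small RNAs. Within their bounds and on the same strand, 7 of the 112 held 10 microRNA genes, and all of their 19 mature RNAs were found in RefSeq. The sequences below stand for the microRNAs best known in myeloid and neural cells, with the seed (bases 2 to 8) in capitals. The 3 let-7 RNAs, from 1 lincRNA, share the seed GAGGUAG, and the others have seeds of their own.
miR-142a-3p (Mir142hg): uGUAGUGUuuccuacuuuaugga
miR-142a-5p (Mir142hg): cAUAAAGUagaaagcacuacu
let-7a-5p (6720427I07Rik): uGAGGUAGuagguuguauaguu
let-7d-5p (6720427I07Rik): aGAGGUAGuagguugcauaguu
let-7f-5p (6720427I07Rik): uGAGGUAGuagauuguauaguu
miR-191-5p (4833445I07Rik): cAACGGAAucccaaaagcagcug
miR-425-5p (4833445I07Rik): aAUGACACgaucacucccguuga
miR-101a-3p (E130102H24Rik): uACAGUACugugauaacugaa

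None of the 7 carriers was called in edgeR or DESeq2 or had an unadjusted p under 0.05 in edgeR, and their log2 fold changes ran from -0.27 to 0.20 with a median of -0.10. Mir142hg, which carries the blood-cell microRNA miR-142, had the highest length-scaled level of them, 19.1 CPM per 1000 bases of exon. It had 4.50, 5.02 and 5.33 CPM in Cre- against 5.21, 5.78 and 4.96 CPM in Cre+, and the groups overlapped (0.10 ± 0.14, adjusted p = 0.76). The let-7 carrier 6720427I07Rik had 2.01, 1.46 and 1.17 CPM in Cre- against 1.43, 2.03 and 1.37 CPM in Cre+ (0.06 ± 0.25, adjusted p = 0.944). 4833445I07Rik, with miR-191 and miR-425, differed by -0.10 ± 0.23, E130102H24Rik, with miR-101a, by -0.13 ± 0.20, and 2900076A07Rik, with miR-1839, by 0.20 ± 0.17. On the separate list of 9 noncoding microRNA hosts, of any biotype, 3 were tested, with a median of 0.09 and none called. These are levels of the long RNA, since mature microRNAs have no poly(A) tail and the kit primes on one.

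Carriers of small nucleolar RNAs, which guide the modification of ribosomal RNA, did not pass the test either. Snhg6, with Snord87, was the highest of them at 14.1, 15.2 and 15.6 CPM in Cre- and 14.8, 16.1 and 15.9 CPM in Cre+ (0.06 ± 0.09, adjusted p = 0.803). Snhg12, with 5 snoRNA genes in its bounds, averaged 4.62 ± 0.70 CPM in Cre- against 4.29 ± 0.31 CPM in Cre+ (SD, n = 3). Epb41l4aos averaged 5.31 ± 0.43 CPM in Cre- against 4.41 ± 0.25 CPM in Cre+, and its groups did not overlap (-0.27 ± 0.14, adjusted p = 0.312). Snhg20 and Snhg10, which each carry a Cajal body RNA and a microRNA, differed by -0.23 ± 0.12 (adjusted p = 0.32) and -0.27 ± 0.21 (adjusted p = 0.529). Over the whole list of snoRNA hosts, lincRNA or not, 14 of 21 were tested, 7 were above 0 and 7 below, none was called, and the median was -0.03. At an unadjusted p under 0.05 there was 1. Gas5, the host with the highest level, differed by 0.03 ± 0.05 (adjusted p = 0.8). DESeq2 called none of the 5 lincRNA hosts.

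The 5 lincRNA genes with the highest length-scaled level were Gm10076, 1810058I24Rik, Malat1, Tmem250-ps and AU020206. Gm10076 stood at 888 CPM per 1000 bases and 1810058I24Rik at 67.8, next to 61.2 for Malat1, 54.0 for Tmem250-ps and 34.3 for AU020206. The Gm10076 transcript was 99.5% identical over 383 bases to Rpl41, a ribosomal protein gene with 742 CPM in Cre- against 709 CPM in Cre+, so the source of its reads is uncertain. By CPM, Gm10076 took 16.5% to 19.9% of the counts of the 112 genes. Apart from Malat1, the genes of this group differed little between Cre+ and Cre-. Gm10076 was at 332, 333 and 373 CPM against 347, 342 and 319 CPM. 1810058I24Rik had the tightest replicates of the group, at 182, 190 and 198 CPM in Cre- and 185, 188 and 188 CPM in Cre+. The log2 fold changes of these 2, Tmem250-ps and AU020206 were between -0.05 and -0.02, with adjusted p from 0.708 to 0.86, and each of the 4 changed sign under at least 1 other setting.

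Among the 26 lincRNAs whose groups did not overlap, the largest changes beyond the called genes were in genes close to the filter. 4933404O12Rik had 2.24, 1.93 and 1.23 CPM in Cre- against 0.611, 1.02 and 1.09 CPM in Cre+ (-0.99 ± 0.28, edgeR adjusted p = 0.0501), just outside the threshold. 9530059O14Rik had 2.97, 1.80 and 2.18 CPM against 1.38, 1.63 and 1.39 CPM (-0.66 ± 0.22, adjusted p = 0.113). Gm7160 had 1.38, 1.14 and 0.928 CPM against 2.05, 1.75 and 1.61 CPM (0.65 ± 0.22, adjusted p = 0.114), and E430024I08Rik at 1.68, 1.60 and 2.05 CPM against 2.65, 2.48 and 2.51 CPM (0.52 ± 0.19, adjusted p = 0.142). Gm7160 starts 124 bases from Zcchc2, on the opposite strand, and Zcchc2 was at -0.26 (adjusted p = 0.284).

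The share of genes called was higher among genes at higher levels. At a mean of 5 CPM or more, 3 of 31 lincRNAs (9.68%) were called, against 6.19% of all genes tested at that level. Under 5 CPM, 1 of 81 (1.23%) was called, against 1.88%. Of the low lincRNAs, 46 had a log2 fold change under 0 and 35 above, with a median of -0.10, and among all genes under 5 CPM, 1687 were under 0 and 1296 above, with a median of -0.04. Beside this, lincRNA genes below the filter had fewer counts in the Cre+ libraries. The 5502 lincRNA genes that were not tested summed to 368, 260 and 298 CPM in Cre- and to 197, 210 and 190 CPM in Cre+. In Cre-, 2484 to 2875 of them had a count, and in Cre+ 2036 to 2126, although the Cre+ libraries were deeper on average. Untested protein-coding genes moved the same way, from 1630 to 2150 CPM in Cre- to 1260 to 1310 CPM in Cre+. Its part in the values of the low lincRNAs was not tested.

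**Figure D4:**
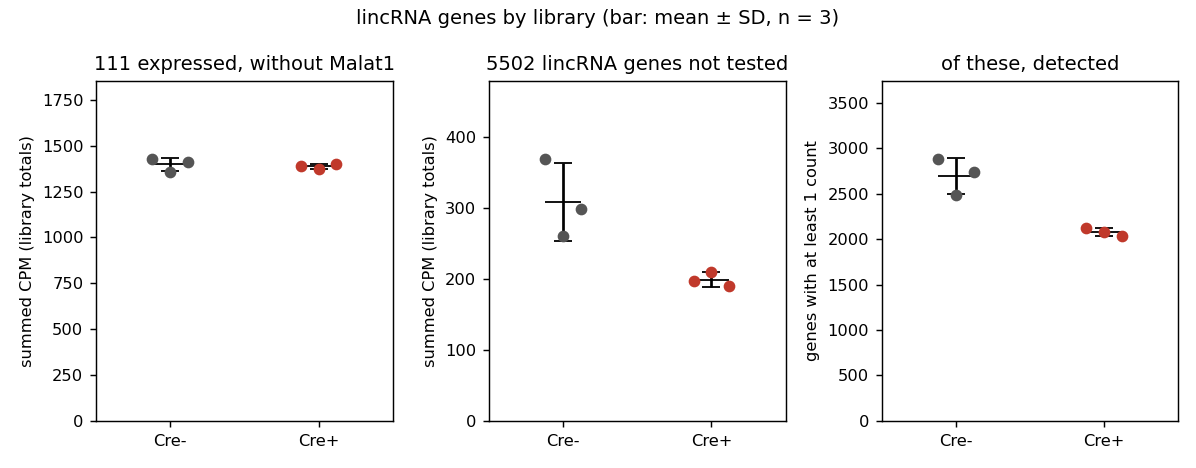
Every dot is a library (Cre- grey, Cre+ red; bar, mean ± SD, n = 3; linear axes from 0). The left panel gives the summed CPM of the expressed lincRNA genes without Malat1, where the groups overlap at about the same level. The middle and right panels give the summed CPM and the number of genes with a count for the 5502 untested lincRNA genes, where each Cre+ library lies below each Cre- library.

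At the edge of the filter, 8 lincRNAs were above 1 CPM in exactly 4 libraries and 11 in exactly 3. Of the 8, Gm32089 and Gm10605 passed through 3 Cre- and 1 Cre+ library, and Gm43062 and BC043934 through 3 Cre+ and 1 Cre- library. Of the 11 just outside, 2310069B03Rik, 5830416I19Rik and Gm29328 exceeded 1 CPM in every Cre- library but in no Cre+ library. Gm20703 did so the other way round. Gm29328 stood at 1.63, 1.10 and 1.26 CPM in Cre- and 0.343, 0.267 and 0.489 CPM in Cre+, on library totals. These values describe how the genes were chosen, and no test was made on them.

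The expressed lincRNAs lay close to protein-coding genes. The median distance to the nearest one was 6348 bases, 29 of 112 were within 1000 bases or overlapping, and 8 were over 100000 bases away. Of all protein-coding genes tested, 5.4% were called. The nearest protein-coding gene was itself tested for 87 lincRNAs and called for 3: Spry2 beside Gm10076, Myc beside Pvt1 and Rac2 beside Gm36738. None of these 3 lincRNAs was called, and the nearest protein-coding gene was not called for any of the 4 lincRNAs that were. In all 112 pairs of a lincRNA and its nearest tested protein-coding gene, the protein-coding gene was called in 5, with Nras and Klhdc4 added. Across these pairs, 65 had the same sign, and Spearman's rho of the log2 fold changes was 0.12, a description over pairs that come from the same 6 libraries. For 14 lincRNAs the start was within 1000 bases of a protein-coding start on the opposite strand, and neither any of the 14 nor a partner was called in edgeR. An unadjusted p under 0.05 was found for 3 of the 14 (21.4%, against 19.1% of all genes tested). Gm11110 was at 0.13 and its partner Tnfsf9, which encodes the 4-1BB ligand, at 0.74 (adjusted p = 0.0881). These 2 genes share 192 exon bases. In all, 29 lincRNAs shared exon bases with another gene on either strand, 7 with a tested gene and none with a called one.

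Promoter entries in RefSeq were found for 64 of the 112 genes. The entry nearest the start of each gene was used at any distance. The farthest were 39202 bases away for Gm14221, 11895 for Gm32591 and 10979 for 5430431A17Rik. TAGGTCA, searched on both strands, was in 3 of these promoters (4.69%) against 2.61% of 32851 promoters of the same 300 bases. They belonged to 1700096K18Rik, D730003I15Rik and Gm26510, and none of the 3 was called. The shorter AGGTCA, which every TAGGTCA contains, was in 9 (14.1%, against 16.3%). The E-box CACGTG, which clock activators bind, was in 8 (12.5%, against 7.15%), TATAAA in 10 (15.6%, against 13.6%) and CCAAT in 32 (50%, against 37.4%). A match is a stretch of letters and was not tested for binding.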

How the data were processed

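RNA of cultured microglia (3 Cre- and 3 Cre+ libraries, from the labels) had been made into cDNA with a SMARTer low-input kit. The kit does not keep strand, and the cDNA was sequenced as read pairs. The authors aligned the reads to GRCm38 with STAR and counted them per gene with featureCounts. The submitters' processing notes give versions 2.7.9a and 2.0.3, and the study's methods give other ones. The deposited counts are whole read counts per gene, and the CPM and FPKM columns, as deposited, are these counts per 1000000 counts of the library and, for FPKM, per 1000 exon bases too. CPM was used for the filter, and FPKM was not used for tests. Gene bounds of 110 of the 112 lincRNAs were the same in GENCODE M21, which gave biotypes for 55227 of 55487 genes. The lincRNAs, gene lists and tests were chosen with earlier results of these data known.

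After the 356 genes of ribosomal RNA biotypes were taken out, the 11429 genes that exceeded 1 CPM in 4 or more of the 6 libraries were tested with edgeR 4.0.16 (TMM, quasi-likelihood, Benjamini-Hochberg over all genes tested, adjusted p of at most 0.05) in R 4.3.3. Levels are TMM-normalised CPM, and a length-scaled level is this value per 1000 exon bases. The fit was tested on simulated counts. limma 3.58.1 and DESeq2 1.42.0 were alternatives, and transcripts were compared with blastn 2.17.0 (at least 100 bases at 95% identity). Named genes were Malat1, Neat1, 1700017M07Rik, called lincRNAs, the 5 highest by length-scaled level, the 3 largest rises and falls without overlap between groups, those on the lists, carriers of a microRNA gene, neighbours of called lincRNAs and called genes of the protein lists. One gene under this rule is not reported here. Others were named after their values were seen. Replicates of 1 group differed by more than counting noise (chi-square per degree of freedom from 18.8 to 25.9), so none was the same library deposited again; whether 2 libraries came from 1 culture was not tested.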

Additional observations from a re-analysis of the deposited data

How the results depend on the processing

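1700017M07Rik, 2610035D17Rik and Gm43351 kept their direction and their call in each of 17 other settings, with log2 fold changes from -2.21 to -2.09, from -0.62 to -0.49 and from 1.02 to 1.27. Malat1 kept its direction in all 17 (0.28 to 0.43, adjusted p from 1.47e-10 to 0.0709) and its call in 14. Leaving out 1 library gave 0.28 to 0.43 for Malat1 and from 3 to 6 lincRNAs called. In these fits 2.77% to 3.92% of all genes tested were called. The count was 4 of 112 in edgeR, 7 with the DESeq2 test and 8 with no filter on expression. In these settings 5.07%, 7.75% and 3.49% of all genes tested were called. At an unadjusted p of at most 0.05 the count was 22, where 19.1% of all genes had one under 0.05. It was 7 at an adjusted p of at most 0.1, for which no share of all genes is given here. Without a filter 43842 genes were tested and their median log2 fold change was -0.20, a shift whose cause was not tested. Without the 8 lincRNAs that matched another gene over at least 50% of the transcript, an alternative chosen after seeing the data, the count of lincRNAs called stayed at 4.

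Replicate numbers gave no sign of pairing (correlations of same-numbered samples 0.01, -0.03 and -0.06), but values near 0 cannot show that pairing is absent. A fit with the replicate block called 4 lincRNAs, the same number, and 430 genes of all, against 579.

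Genes near 0 changed sign, and none of these values passed the test. With no filter 1810058I24Rik was at 0.056, AU020206 at 0.042, Gm10076 at 0.037, Neat1 at 0.05 and Tmem250-ps at 0.029. With edgeR's own filter 1810058I24Rik was at 0.02, AU020206 at 0.005, Gm10076 at 0.001 and Neat1 at 0.013. Leaving out 1 library gave ranges of -0.059 to 0.007 for 1810058I24Rik, -0.245 to 0.051 for 4833445I07Rik, -0.144 to 0.278 for 6720427I07Rik, -0.112 to 0.074 for AU020206, -0.078 to 0.014 for Gm10076, -0.123 to 0.081 for Neat1 and -0.192 to 0.022 for Snhg12. The genes named with no filter all had a mean of 10 CPM or more. With no filter, genes that kept their sign also moved up. 1700020I14Rik went from 0.137 to 0.217, 2900097C17Rik from 0.189 to 0.267 and 2610035D17Rik from -0.572 to -0.493. Replicates of lincRNAs under 2 CPM had a median coefficient of variation of 19.3%, against 5.72% at 10 CPM or more. The cause of the sign changes was not tested.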

Other observations

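The untested genes of other biotypes also had fewer counts in the Cre+ libraries. The 2883 antisense genes under the filter summed to 208 to 281 CPM in Cre- and 176 to 179 CPM in Cre+, and the 9157 processed pseudogenes to 664 to 789 CPM in Cre- and 582 to 648 CPM in Cre+. Genes of ribosomal RNA biotypes took 1.24% ± 0.03 of the counts in Cre- and 0.994% ± 0.18 in Cre+ (SD, n = 3), while mitochondrial genes took 1.17% ± 0.08 and 1.21% ± 0.10.

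Called shares by biotype, from the same edgeR test, were 3 of 76 antisense genes (3.95%), 4 of 80 processed transcripts (5.0%), 7 of 780 processed pseudogenes (0.897%) and 549 of 10176 protein-coding genes (5.4%).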
